A study of Mus musculus with 20 samples.

Results

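The 9 genes followed here belong to T helper and regulatory T cells and were measured in whole lungs of mouse dams that had been given carbon black during pregnancy. These are Cd3e, Cd4, Cd28, Icos, Foxp3, Il2ra, Ctla4, Tnfrsf4 and Tnfrsf18, and their probes were those that carried one of these names in the array's spot files. This gave 16 probes for the 9 genes, out of 41174 probes on the array. Of these, 9 probes of 8 genes passed a filter on dim signal, and they belonged to the 19911 genes tested. Ctla4 had no probe that passed.

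All 20 animals were time-mated C57BL/6BomTac females whose lungs were taken 26 to 27 days after exposure, once their young had been weaned. Every dam received 4 instillations into the trachea, given on days 7, 10, 15 and 18 of gestation. The 5 control dams received Milli Q water, the vehicle. The others received Printex 90, an industrial carbon black of very fine particles, in water, to a total of 11 µg (low, 5 dams), 54 µg (medium, 5 dams) or 268 µg (high, 5 dams). Each dam's lung RNA was labelled with Cy5 and hybridised against one commercial universal reference RNA labelled with Cy3, without dye swaps, so each array is 1 dam. The labels give neither the dams' exact age nor a count of cells in these lungs. All values are for whole lung, in which a change in the number of T cells and a change in RNA per T cell cannot be told apart.

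CD3 epsilon, encoded by Cd3e, is a part of the T cell receptor complex on all mature T cells, and CD4 marks the helper lineage. CD28 and ICOS are costimulatory receptors, and CTLA-4 is an inhibitory receptor that competes with CD28 for the ligands CD80 and CD86. FOXP3 is the transcription factor that defines regulatory T cells, which restrain immune responses and carry high levels of the interleukin 2 receptor alpha chain (Il2ra), CTLA-4, OX40 (Tnfrsf4) and GITR (Tnfrsf18). OX40 and GITR belong to the tumour necrosis factor receptor family and are also induced on activated helper T cells.

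The probes below are the ones on which the results turn, namely the gene that differed from control, its neighbour, the dim Foxp3 probe, the probe pair of Icos, and the dim second probe of Cd3e. The first 30 bases of each 60-base probe are shown in lower case, 5′ to 3′, as in the spot files, with mm7 positions from those files. No mm7 annotation was used here, so exon and UTR positions are not given.

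Tnfrsf4 (probe A_51_P469433, chr4:155006068-155006127, + strand): tctgggctttcctatgtatgctatgcatac

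Tnfrsf18 (probe A_51_P469401, chr4:155018282-155018341, + strand): gcggaagtgggtgtatgagagcggtgagtt

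Foxp3 (probe A_51_P401096, chrX:6028182-6028241, + strand): cagttcctttgtgtccgacaagatctggta

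Icos (probe A_52_P682768, chr1:61251160-61251219, + strand): taactgccagtgtttgttttcatctcctgt

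Icos (probe A_51_P371279, chr1:61249192-61249251, + strand): tagaaccaacatgctctcttccaattccta

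Cd3e (probe A_52_P86404, chr9:44938246-44938305, - strand): ctaggaaacatcgatggtaaaaattaagtc

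The Tnfrsf4 and Tnfrsf18 probes start 12.2 kb apart on chromosome 4. The Cd28 probe used starts 142 kb from that of Ctla4 and 227 kb from that of Icos on chromosome 1.

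The measure was M, the log2 of the lung over the reference signal in the authors' deposited value table. M can be compared between dams for 1 probe but not between probes, since the reference RNA holds each transcript at its own level. A probe was called well above background as the scanner software flagged it in the Cy5 (lung) channel. Between 64.0% and 78.3% of features per array carried that flag, and median Cy5 signals ranged from 161.5 to 246.5, the highest being that of high dam 62. Markers of lung structure (surfactant, airway, endothelial and other genes) were tested for 10 of 10 genes, and of the 19 T cell receptor and signalling genes listed all 19 were tested. The arrays lay on 6 slides. Slides 1 to 3 held 1 dam of each group, slides 4 and 5 held control, low and high dams, and slide 6 held 2 medium dams read with another version of the scanner software. Each group had the same position on slides 1 to 5, so position and group cannot be told apart.

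The signal of the members differed widely in how far it stood above background. Tnfrsf4, Tnfrsf18, Cd3e and both Icos probes were well above background on all 20 arrays. Cd28 and Il2ra were so on 18 arrays each and Cd4 on 17. Foxp3 was well above background on 0 of 5 control, 0 of 5 low, 0 of 5 medium and 4 of 5 high arrays, so it passed the filter only through the high dams. Ctla4 was well above background on 1 of 20 arrays, that of high dam 65. A second probe of Cd28 and 2 of the 4 Il2ra probes were so on 0 arrays, and a second probe each of Cd3e, Cd4 and Il2ra on 1 array.

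**Figure D1:**
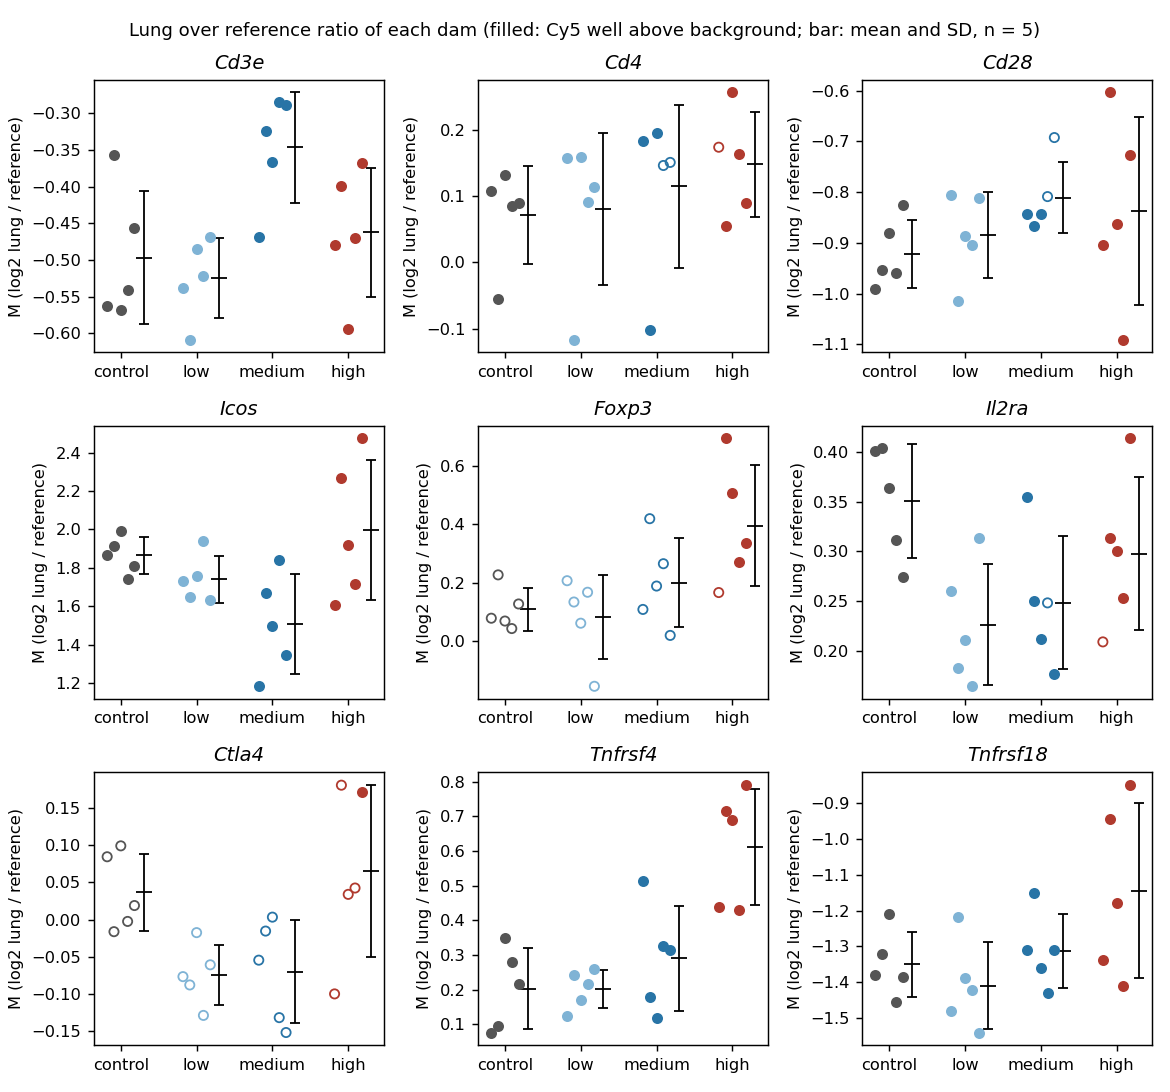
M, the log2 of lung over reference signal, of each dam for the 9 genes, by group (5 dams each), with the mean and SD beside the points. Filled points are arrays on which Cy5 was well above background. The 5 high dams lay above the 5 control dams for Tnfrsf4, whereas high and control dams overlapped for the other 8 genes; axes differ between panels.

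The first question was which members differed between the high dose and water. One of the 8 tested was called, Tnfrsf4, which was higher, and none was called lower (limma, adjusted p under 0.05 over all 19911 genes). Over all genes 1.03% were called, 0.492% higher and 0.537% lower. At an unadjusted p under 0.05 there were 3 members of 8, Tnfrsf4, Foxp3 and Tnfrsf18, against 16.5% of all genes. Of the 8, 7 had a difference above 0, with a median of 0.11 in log2, where 46.6% of all genes had one and their median was -0.0091. The filter favours genes such as Foxp3 that rise above background only in the high dams, so these counts describe the 8 that passed and not all 9. Members and lists were also chosen with earlier results of these data known, so their counts beside the shares of all genes are a description.

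Tnfrsf4 encodes OX40, a receptor of activated and regulatory T cells. In the control dams its M was 0.076, 0.095, 0.35, 0.28 and 0.22. In the low dams it was 0.12, 0.24, 0.17, 0.22 and 0.26, and in the medium dams 0.51, 0.18, 0.12, 0.32 and 0.31. In the high dams it was 0.44, 0.71, 0.69, 0.43 and 0.79. Every high dam lay above every control and every low dam, whereas medium dam 46 lay among the high dams. Of all genes, 1.49% had all high dams above all control dams and 1.19% had all high dams above all low dams. The mean rose by 0.41 ± 0.081 (SE, n = 5 dams per group) from control to high, a 1.33-fold ratio with a 95% interval of 1.18 to 1.49 (limma, adjusted p = 0.0189).

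Since no high dam overlapped the controls, the Tnfrsf4 difference had to be positive within each of the 5 slides that held both groups. It ran from 0.15 on slide 4 to 0.62 on slide 2. In the Cy5 signals alone, the control dams ran from 577 to 814 and the high dams from 596 to 1269, so the lung channel by itself overlapped. High dam 60, with the lowest of those signals, was the one that lay among the controls. Tested in the Cy5 channel alone the difference was 0.60 with an adjusted p of 0.329 (limma), and the lung over reference ratio of the scanner software gave 0.49 with an adjusted p of 0.0865. With normexp background correction and loess it was 0.42 (limma, adjusted p = 0.0676). In that setting low dam 27 stood apart: the slope computed for its array was 0.68, against 0.96 to 1.06 for the other arrays. With 1 spot left out of the background fit its slope was 0.999, and Tnfrsf4 was called at the high dose (limma). Whether that array took part in the lost call was not tested. With only the control and high dams in the fit the adjusted p of Tnfrsf4 was 0.0886 (limma). Without high dam 62 the adjusted p was 0.0549 for a difference of 0.38.

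Tnfrsf4 was not called at the lower doses. The difference from control was -0.0011 ± 0.081 (SE) at the low dose and 0.087 ± 0.081 at the medium dose. High against low was called, at 0.41 ± 0.081 (limma, adjusted p = 0.0442), where 0.146% of all genes were. High against medium was 0.32 ± 0.081 and was not called (limma, adjusted p = 0.167); 0.11% of all genes were. Over the dose steps the trend was 0.13 ± 0.029 per step (limma, adjusted p = 0.0279), where 1.44% of all genes were called. The high against low call was lost when any 1 of 14 arrays was left out, namely each low dam, control dam 7, 15 or 18, medium dam 47, 49 or 50, or high dam 62, 63 or 65 (limma, adjusted p from 0.0508 to 0.146). The trend call was lost without control dam 7 or high dam 62, 63 or 65 (limma, adjusted p from 0.0525 to 0.0684).

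Tnfrsf18 encodes GITR, the neighbour of OX40 on the chromosome. Its M was -1.38, -1.32, -1.21, -1.45 and -1.39 in the control dams and -1.34, -0.94, -1.18, -1.41 and -0.85 in the high dams. High dams 62, 63 and 65 lay above all controls, while dams 60 and 64 lay within them. The difference of 0.21 ± 0.093 (SE, n = 5) was not called (limma, unadjusted p = 0.0381, adjusted p = 0.269). It was above 0 within each of the 5 slides, from 0.032 to 0.54, but 3 of these 5 values were at or below 0.043. The low dams ran from -1.54 to -1.22 and the medium dams from -1.43 to -1.15, both overlapping the controls.

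The 250 bases upstream of the RefSeq start of Tnfrsf4 and of Tnfrsf18 (GRCm38.p6) are shown because these neighbours were both highest in high dams 62 and 65. Capitals mark the letters GGAAA on either strand (TTTCC), the core bound by NFAT factors, which act downstream of the T cell receptor.

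Tnfrsf4 (chr4:156013445-156013694, + strand): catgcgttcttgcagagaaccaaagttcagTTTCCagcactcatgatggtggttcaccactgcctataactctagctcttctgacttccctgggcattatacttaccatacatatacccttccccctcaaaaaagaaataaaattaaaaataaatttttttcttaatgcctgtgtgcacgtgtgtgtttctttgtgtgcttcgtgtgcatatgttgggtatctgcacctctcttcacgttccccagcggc

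Tnfrsf18 (chr4:156026072-156026321, + strand): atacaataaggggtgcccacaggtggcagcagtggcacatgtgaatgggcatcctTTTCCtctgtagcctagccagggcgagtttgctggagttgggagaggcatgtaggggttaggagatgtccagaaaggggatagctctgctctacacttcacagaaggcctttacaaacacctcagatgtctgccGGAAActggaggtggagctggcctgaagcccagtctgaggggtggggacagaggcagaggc

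The letters occurred once in the Tnfrsf4 window and 2 times in the Tnfrsf18 window, and in 55.6% of 32851 such windows. The AP-1 letters TGANTCA, which read the same on both strands, occurred in neither window and in 6.75% of all. Among the other members with a RefSeq window, GGAAA or its reverse occurred in those of Foxp3, Il2ra, Ctla4 and Cd3e, and TGANTCA in none of them. These matches are letters in a window and not sites.

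Foxp3, the regulatory T cell factor, had M values of 0.078, 0.23, 0.068, 0.042 and 0.13 in the control dams. They were 0.21, 0.13, 0.061, 0.17 and -0.16 in the low dams and 0.11, 0.42, 0.19, 0.26 and 0.019 in the medium dams, all on arrays where the probe was not well above background. In the high dams they were 0.17, 0.70, 0.51, 0.27 and 0.34, and the first of these, dam 60, was again not well above background. Of the 5 high dams, 4 lay above all controls, and dam 60 lay below control dam 7. The measured difference from control was 0.29 ± 0.093 (SE, n = 5), which was not called (limma, unadjusted p = 0.0057, adjusted p = 0.126). The control values are at background and the probe was tested only because it reached the filter in the high dams, so this difference and its p are a description and support nothing.

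Because the control, low and medium signals of Foxp3 were not well above background, the lung channel was also set against the lowest signal called well above background on each array. The mean of the high dams was 1.10 times that limit in the control, 1.14 times in the low and 1.07 times in the medium dams. It includes high dam 60 at its measured signal, which was not well above background either. The flag did not follow the signal alone across arrays: medium dam 47 had 109 without it and high dam 64 had 98 with it. The limit therefore need not be a ceiling for probes without the flag, and these ratios are not lower bounds. Like the within-slide differences and the slope below, they describe the probe and support nothing. Cy5 signals of the probe were 87.5 to 97 in the control dams and 92 to 121 in the high dams, against a local background near 82. The difference was above 0 within each of the 5 slides, from 0.088 to 0.47. The slope over dose steps, 0.098 ± 0.030, has the same limit, since the probe was well above background on only 4 of the 20 arrays. The slope was not called (limma, adjusted p = 0.0987), and its adjusted p was 0.0456 with slide as a random block.

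Il2ra encodes the alpha chain of the interleukin 2 receptor, abundant on regulatory T cells. Its one probe that passed the filter had M values of 0.40, 0.40, 0.36, 0.31 and 0.27 in the control dams and 0.21, 0.31, 0.30, 0.25 and 0.41 in the high dams, which overlapped. The high against control difference was -0.053 ± 0.049 (SE, n = 5; limma, adjusted p = 0.636). Its sign turned in 4 of 33 alternative settings, among them all 3 that use normexp background correction and the Cy5 channel alone. The low dams differed by -0.12 ± 0.049 and the medium dams by -0.10 ± 0.049, neither of which was called. The other 3 Il2ra probes, dim on 19 or 20 arrays, had high against control differences of 0.016, 0.066 and -0.011.

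Ctla4, the inhibitory receptor, was dim on nearly every array, so its ratios are near the noise of the background. M was 0.084, -0.016, 0.099, -0.0026 and 0.019 in the control dams and -0.10, 0.18, 0.034, 0.042 and 0.17 in the high dams. In a fit without the filter the high against control difference was 0.029 ± 0.051 (SE, n = 5; limma, adjusted p = 0.829). The low dams, from -0.13 to -0.018, all lay below the control dams, as did 0.874% of the genes that passed the filter, and the low against control difference of -0.11 ± 0.051 was not called (limma, adjusted p = 0.689).

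**Figure D2:**
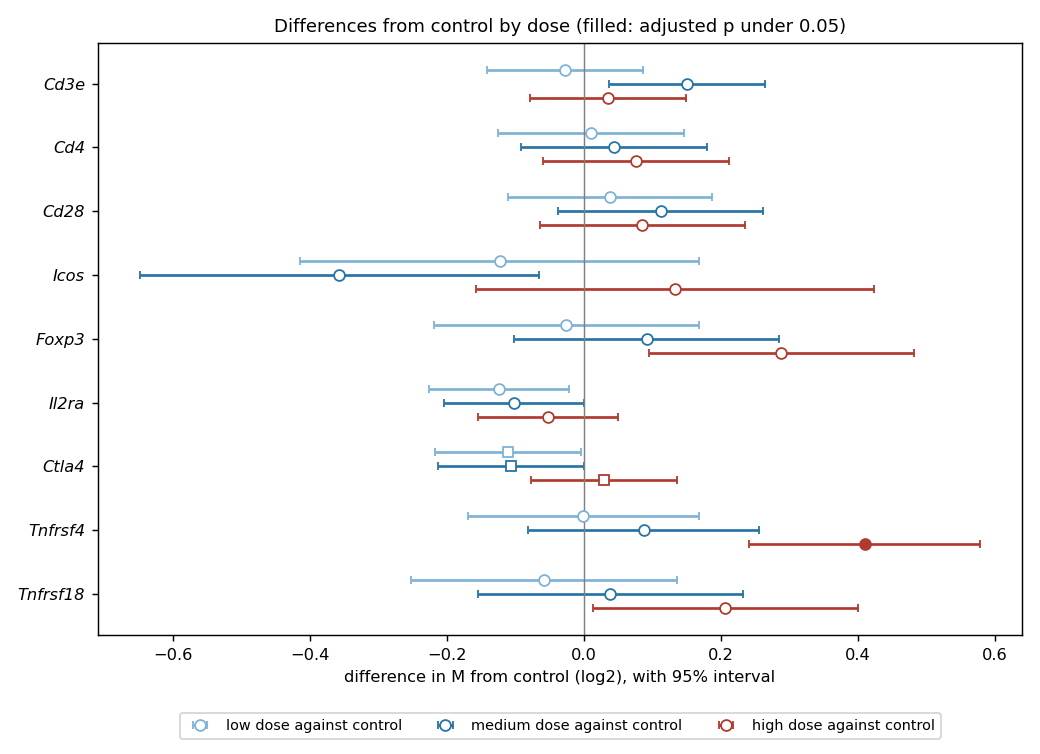
Difference in M from control (log2, horizontal) of each gene at the low, medium and high dose, with 95% intervals from the limma fit of all 20 arrays (5 dams per group). The filled point, Tnfrsf4 at the high dose with 0.41, is the one with an adjusted p under 0.05; squares mark Ctla4, taken from a fit without the filter on dim probes.

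Among the genes of the T cell body itself, Cd3e had M values of -0.56, -0.36, -0.57, -0.54 and -0.46 in the control dams. They were -0.48, -0.40, -0.59, -0.47 and -0.37 in the high dams, overlapping the controls, and the difference of 0.035 ± 0.055 (SE, n = 5) was not called (limma, adjusted p = 0.813; 95% interval -0.079 to 0.15). In the medium dams they were -0.47, -0.32, -0.37, -0.29 and -0.29, and 3 of the 5 lay above all controls. The difference was 0.15 ± 0.055 (limma, unadjusted p = 0.0126, adjusted p = 0.246), and 1 of its 34 alternatives gave -0.083. Dams 49 and 50, the highest, were on slide 6, which held no control dam. Within slides 1 to 3 the differences were 0.032 to 0.20. The mean Cy5 signal was not higher, at 171.8 in medium and 194.8 in control dams. The low dams differed from control by -0.028 ± 0.055.

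The Cd3e probes did not move together. The second one, well above background on 1 of 20 arrays, had M from -0.45 to -0.24 in the control dams and from -0.10 to 0.12 in the high dams. The groups did not overlap, as was so in this direction for 1.49% of the genes that passed the filter, and the difference was 0.34. Its Cy5 signals, 89.5 to 103 in control and 87 to 98 in high dams, were not higher in the high dams. For the main probe, the Cy5 signal of high dam 62 was 402.5, whereas the other 19 arrays ran from 146 to 222, and that dam's M of -0.40 lay between the highest and lowest of its group.

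Cd4, the co-receptor of helper T cells, was 0.11, -0.055, 0.13, 0.085 and 0.089 in the control dams and 0.17, 0.055, 0.26, 0.16 and 0.089 in the high dams. The difference of 0.076 ± 0.065 (SE, n = 5) was not called (limma, adjusted p = 0.600), nor was that at the medium dose, 0.043 ± 0.065, or at the low dose, 0.0094 ± 0.065. The lowest dam of every group was the one on slide 2, where the Cy5 signals of the probe were 141 to 175 against 99.4 to 115 on the other slides. Whether slide 2 took part in these values was not tested. The probe is printed in 10 spots per array, whose M had a median SD of 0.12 within an array, against an SD of 0.10 between dams within groups.

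Cd28, the main costimulatory receptor of naive T cells, was -0.99, -0.95, -0.88, -0.96 and -0.83 in the control dams. It was -0.90, -0.60, -0.86, -1.09 and -0.73 in the high dams, which held both the highest and the lowest value of those 10. The high against control difference was 0.085 ± 0.072 (SE, n = 5; limma, adjusted p = 0.597; 95% interval -0.065 to 0.23). The medium difference of 0.11 ± 0.072 and the low difference of 0.038 ± 0.072 were not called either.

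Icos, a costimulatory receptor of activated, follicular helper and regulatory T cells, had its largest SD at the high dose. M was 1.86, 1.91, 1.99, 1.74 and 1.81 in the control dams (SD 0.096) and 1.61, 2.27, 1.92, 1.72 and 2.47 in the high dams (SD 0.37). High dams 62 and 65 lay above all controls and dams 60 and 64 below them. In the medium dams it was 1.18, 1.67, 1.495, 1.84 and 1.35, with 4 of the 5 below all controls.

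The high against control difference of Icos was 0.13 ± 0.14 (SE, n = 5; limma, adjusted p = 0.688) and the medium one -0.36 ± 0.14 (limma, unadjusted p = 0.0186, adjusted p = 0.278). High against medium was 0.49 ± 0.14 (limma, unadjusted p = 0.0022, adjusted p = 0.210). None of these was called. The other Icos probe gave differences from control of 0.075 at the high, -0.17 at the medium and -0.11 at the low dose, with the same signs as the 0.13, -0.36 and -0.12 of the main probe. The high against control value was 0.013 without high dam 65, 0.065 without dam 62, 0.20 without dam 64 and 0.23 without dam 60, and 0.60 in the Cy5 channel alone and 0.85 in the software log ratio, and was called in none of its 34 alternatives. The medium difference turned to 0.065 in the Cy5 channel alone.

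At the medium dose 0 of the 8 members were called against control (limma), and 3 had an unadjusted p under 0.05, namely Cd3e (higher), Icos and Il2ra (both lower). Of all genes 0.00502% were called and 14.1% had such a p. At the low dose 0 of 8 were called (limma), where 0.00502% of all genes were, and 1, Il2ra, had an unadjusted p under 0.05, where 7.49% of all genes had one. The 3 comparisons share the control dams, and the members' median difference from control was 0.11 at the high, 0.065 at the medium and -0.027 at the low dose. Between medium and low 0 of 8 were called (limma), as was 0.0% of all genes, and 1, Cd3e, had an unadjusted p under 0.05 (0.0041), where 3.75% of all genes had one. Between high and medium 0 of 8 were called (limma), where 0.11% of all genes were. In that comparison 4 had an unadjusted p under 0.05, where 10.4% of all genes had one: Tnfrsf4, Foxp3, Icos and, in the opposite direction, Cd3e. Foxp3 was well above background on 0 of 5 medium arrays and passed the filter only through the high dams, so its p supports nothing.

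**Figure D3:**
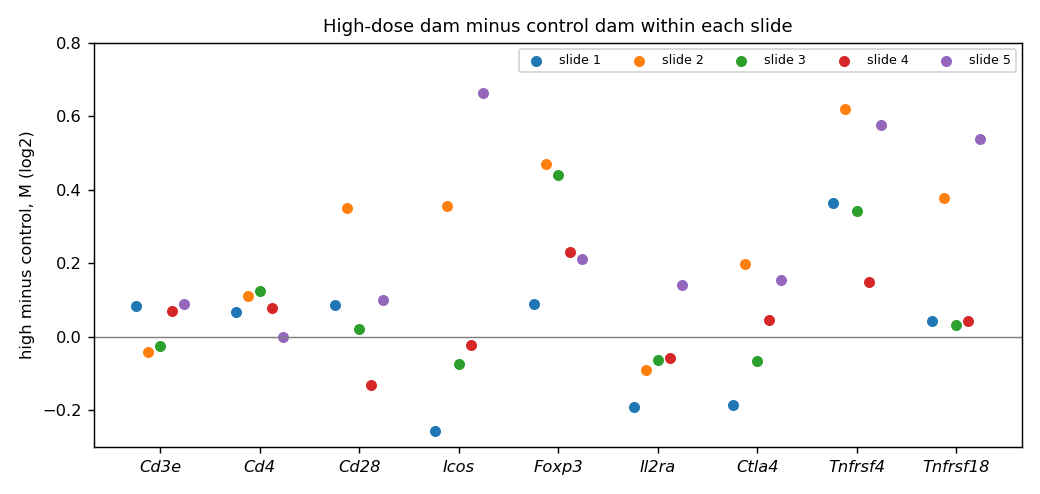
High dam minus control dam on the same slide, in M (log2, vertical), for the 9 genes; each point is 1 slide (5 slides). Icos ran from -0.26 to 0.66. All 5 points lay above 0 for Tnfrsf18 and Cd4, the lowest of Cd4 being 0.00037. They did so for Tnfrsf4 by necessity, since its high and control dams did not overlap. They also did so for Foxp3, whose control values are at background and which passed the filter only through the high dams. The share of all genes with 5 such points was not computed.

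Setting each member against Cd3e on the same array asks whether it moved beside the T cell receptor gene. This difference of differences was tested with a two-sided exact permutation test over the 252 groupings of 5 against 5, whose smallest p is 0.0079, in 21 comparisons. None passed after Benjamini-Hochberg adjustment. At the high dose Foxp3 minus Cd3e was 0.61 ± 0.030 (SD, n = 5) in control and 0.86 ± 0.22 in high dams, a difference of 0.25 (exact p = 0.0079, adjusted p = 0.0833). As the control values of Foxp3 are at background and the high dams brought it through the filter, that p supports nothing. Tnfrsf4 minus Cd3e was 0.70 ± 0.18 in control and 1.07 ± 0.16 in high dams (difference 0.38, exact p = 0.0159, adjusted p = 0.111).

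At the medium dose Icos minus Cd3e was 1.85 ± 0.21 (SD, n = 5) against 2.36 ± 0.13 in control dams, a difference of -0.51 that did not pass the adjustment (exact permutation p = 0.0079, adjusted p = 0.0833). Il2ra minus Cd3e differed by -0.25 at that dose (exact permutation p = 0.0238, adjusted p = 0.125). In both, Cd3e itself was 0.15 higher in M in the medium than in the control dams, while its mean Cy5 signal was not higher.

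Across the 20 dams, with group means removed, the other 7 tested members were correlated with Cd3e, and none passed the adjustment over the 7 (permutation within groups). The highest was Icos, with Pearson r = 0.47 (permutation p = 0.0663, adjusted p = 0.397) and Spearman rho = 0.48 (permutation p = 0.0632, adjusted p = 0.189); r was 0.53 without the 2 dams farthest from the Cd3e median, 0.48 within slides 1 to 3 (12 dams) and 0.56 within slides 4 to 6 (8 dams). Cd28 followed with r = 0.42 (permutation p = 0.113, adjusted p = 0.397) and rho = 0.57 (permutation p = 0.0234, adjusted p = 0.164), and r was 0.54 without the 2 farthest dams, 0.34 within slides 1 to 3 and 0.67 within slides 4 to 6. In other measures calls appeared: Cd28 with Cd3e had r = 0.78 with normexp and loess and r = 0.72 in the Cy5 channel alone (permutation, adjusted p = 0.027 and 0.0091), and Cd4 with Cd3e, at r = -0.33 here, had r = -0.67 with normexp and loess (permutation, adjusted p = 0.0053) and 0.24 in Cy5 alone. With the normexp background fitted without 1 spot these were 0.63 and -0.42, neither of which passed, and Icos with Cd3e turned to r = -0.24 with normexp and loess. In the main measure Cd4 with Cd3e had r = -0.095 without the 2 dams farthest from the Cd3e median. Foxp3 with Cd3e had r = 0.099 (permutation p = 0.713, adjusted p = 0.769) and rho = 0.14 (permutation p = 0.592, adjusted p = 0.827).

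As a description over the same 20 dams, which share the reference RNA and the slides, the pairs of highest correlation after removal of group means were Icos with Tnfrsf18 (r = 0.63), Foxp3 with Icos (r = 0.57), and Tnfrsf4 with Tnfrsf18 and with Cd28 (both r = 0.49). Foxp3 with Tnfrsf18 had r = 0.48, but Foxp3 with Tnfrsf4 had r = 0.024. Cd4 ran the other way from Tnfrsf18, with r = -0.56.

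The M of Foxp3 was at background on 16 of the 20 arrays, so the order of the genes most like it rests largely on such values. Among 15539 genes compared these were Ccl3 (r = 0.85), Gm4890 (r = 0.83), Cd80 (r = 0.83), Lrp12 (r = 0.83) and Malt1 (r = 0.83). Those most like Il2ra were Scara5 (r = 0.80), Tsc22d4 (r = 0.80), Sulf2 (r = 0.79), Fh1 (r = 0.79) and Olfml2b (r = 0.77). Those most like Cd3e were Rpusd3 (r = 0.76), Nckap5l (r = 0.75), Adgrb2 (r = 0.71), B4galnt4 (r = 0.71) and Txnrd3 (r = 0.70). For Tnfrsf4, added after its values were seen, they were Il4i1 (r = 0.90), Ms4a7 (r = 0.88), A430093F15Rik (r = 0.87), Trem2 (r = 0.86) and Plekhs1 (r = 0.86), and none of these 5 is a member of the T cell lists used here. These correlations include the group differences. At the high dose Trem2 and Ms4a7, known from macrophages, differed from control by 0.96 ± 0.13 and 0.95 ± 0.17 (SE, n = 5). Il4i1 differed by 0.61 ± 0.17, Plekhs1 by 0.46 ± 0.10 and A430093F15Rik by 0.33 ± 0.052. Genes picked for likeness to Tnfrsf4 tend to share its rise at the high dose, so these differences are a description and support nothing. In the macrophage list 0 of 8 genes were called higher (limma), where 0.492% of all genes were, with a median of -0.016.

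Other genes of T cells were taken from lists of pathway and marker genes. Of 19 genes of the T cell receptor complex and its signalling, 0 were called at the high dose (limma), where 1.03% of all genes were. In this list 3 had an unadjusted p under 0.05, close to the 16.5% of all genes that had one. Their median difference was -0.034, where all genes had -0.0091. The 3 were Themis, a T cell signalling protein (0.18 ± 0.073), Prkcq, the kinase PKC theta (-0.29 ± 0.12), and Cd2, an adhesion receptor of T and natural killer cells (-0.28 ± 0.13; all SE, n = 5). Themis was well above background on 0 of 5 control and 1 of 5 high arrays.

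Of 14 genes of naive and memory T cells 0 were called (limma), where 1.03% of all genes were, with a median of -0.12. An unadjusted p under 0.05 was found for 4, where 16.5% of all genes had one. Among these 4 were Cd27, a costimulatory receptor (-0.25 ± 0.079), and Cd44, an adhesion receptor high on memory T cells (0.23 ± 0.095; both SE, n = 5).

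Of 28 genes of T helper lineages and cytokines 18 were tested, and 1 was called, lower, where 0.537% of all genes were called lower. This was Ifng, the interferon gamma gene, which is made by type 1 helper, CD8 and natural killer cells. It fell by 0.55 ± 0.11 on the log2 scale (SE, n = 5; limma, adjusted p = 0.0203), from a mean of 1.59 in control to 1.04 in high dams. The list's median was -0.043. Maf, a transcription factor of several helper subsets and of macrophages, had 0.35 ± 0.11, and Rora, a factor of type 17 helper and innate lymphoid cells, -0.26 ± 0.12; neither was called. The 10 that did not pass the filter were Ccr4, Ccr8, Il2, Il5, Il9, Il17a, Il17f, Il21, Il22 and Cd40lg.

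Of 23 other genes linked to regulatory T cells 20 were on the array and 18 were tested. Of these 1 was called, higher, where 0.492% of all genes were called higher. This was Tnfrsf9, which encodes the activation receptor 4-1BB. It rose by 0.54 ± 0.12 (SE, n = 5; limma, adjusted p = 0.0266), from -1.32 in control to -0.78 in high dams. All high dams lay above all control dams, as they did for 1.49% of all genes. Tnfrsf9 also rose against the low dose and over the dose steps (limma, adjusted p = 0.0404 and 0.0343), where 0.146% and 1.44% of all genes were called. The list's median was 0.038 and 13 of 18 differences were above 0. Il2rb, the beta chain that pairs with Il2ra, had -0.33 ± 0.10, and Batf, a transcription factor of helper T cells, 0.28 ± 0.11; neither was called. Izumo1r and Gpr15 were on the array but did not pass the filter.

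Of 18 ligands and partners of the costimulatory receptors 15 were tested, with a median of -0.020. Of these 0 were called (limma), where 1.03% of all genes were, and 5 had an unadjusted p under 0.05, where 16.5% of all genes had one. Cd80 and Cd86, the ligands of CD28 and CTLA-4 on antigen-presenting cells, had differences of 0.30 ± 0.080 and 0.31 ± 0.093 (SE, n = 5; limma, adjusted p = 0.0686 and 0.104), and Il15, a cytokine of memory T and natural killer cells, -0.21 ± 0.067. The ligands of OX40 and GITR, Tnfsf4 and Tnfsf18, did not pass the filter.

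**Figure D4:**
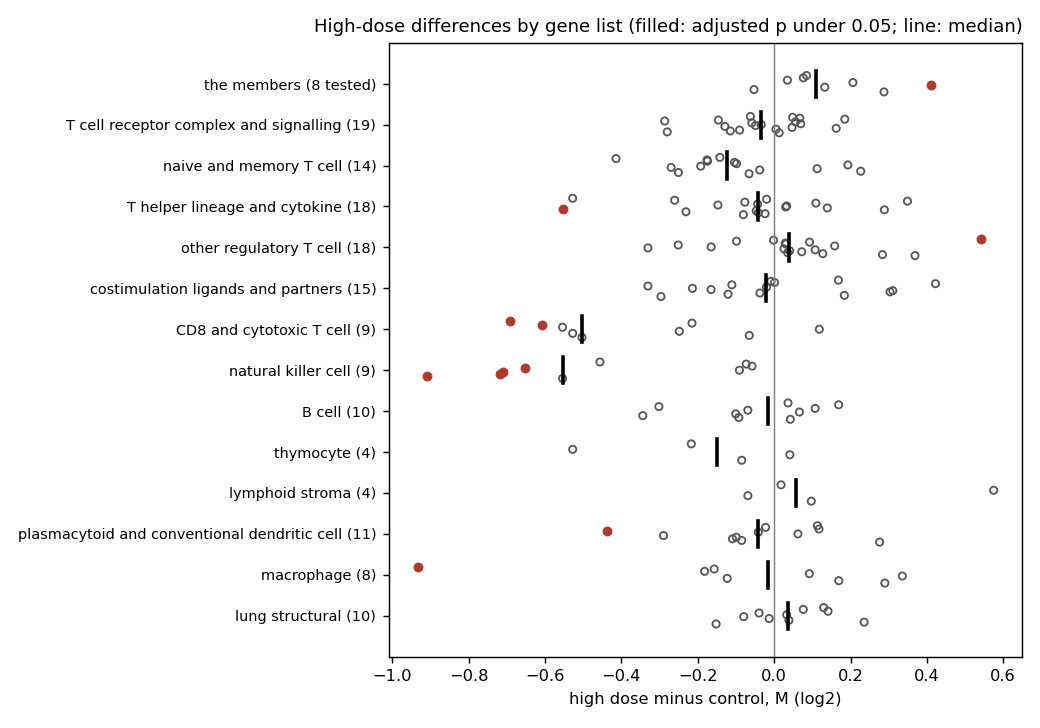
High minus control difference in M (log2, horizontal) of the tested genes of each list, with the number tested in brackets; filled points have an adjusted p under 0.05 (limma, 5 dams per group) and black lines are medians. The members had a median of 0.11. The natural killer list and the CD8 and cytotoxic T cell list, which share Gzma, had medians of -0.55 and -0.50.

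Genes of other lymphocytes moved at the same dose, with the members' values beside them. In the CD8 and cytotoxic T cell list 2 of 9 were called, both lower, where 0.537% of all genes were called lower; 6 of 9 had an unadjusted p under 0.05, where 16.5% of all genes had one, and the mean M of the list ran from 1.74 to 2.12 in the control dams and from 1.40 to 1.78 in the high dams. Prf1, perforin, fell by 0.69 ± 0.14 and Gzmb, granzyme B, by 0.61 ± 0.13 (SE, n = 5; limma, adjusted p = 0.0176 and 0.0255). Which cells the RNA of these 2 genes came from cannot be told in whole lung. The CD8 chain genes were not called, with -0.065 ± 0.067 for Cd8a and -0.53 ± 0.16 for Cd8b1 (limma, adjusted p = 0.678 and 0.107). Eomes had 0.12 ± 0.12 and was not called. Gzma is in this list and in the natural killer list, and so enters the counts of both. In the natural killer list 4 of 9 were called, all lower, 6 of 9 had an unadjusted p under 0.05, and the mean M ran from 1.77 to 2.12 in control and from 1.30 to 1.72 in high dams; Klrb1a fell by 0.72 ± 0.094 and Klra8 by 0.91 ± 0.14 (limma, adjusted p = 0.0017 and 0.0041). Of the natural killer genes all 9 were well above background on at least 1 array of each group. Their part in the differences of the members was not tested.

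B cell genes had 0 of 10 called (limma; 0 with an unadjusted p under 0.05), with a mean M of 0.66 to 1.30 in control and 0.42 to 1.53 in high dams. Of 8 thymocyte genes 4 were tested and 0 called (limma; 1, Cd8b1, had an unadjusted p under 0.05), and Rag1, Rag2 and Ptcra, which define them, did not pass the filter; Cd8b1 is in the CD8 list too. The mean M of the 4 ran from 0.66 to 0.92 in control and 0.34 to 0.76 in high dams. Lymphoid stroma genes had 0 of 4 called (limma; 0 at an unadjusted p under 0.05), with 1.34 to 1.68 in control and 1.25 to 2.18 in high dams. Of all genes 1.03% were called and 16.5% had an unadjusted p under 0.05.

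Dendritic cell genes had a mean M of 0.82 to 1.03 in control and 0.83 to 0.96 in high dams. Of the 11 tested 1 was called, lower, where 0.537% of all genes were called lower. This was Siglech, a plasmacytoid dendritic cell receptor, at -0.44 ± 0.054 (SE, n = 5; limma, adjusted p = 0.0014), which also fell at the medium dose by 0.54 and at the low dose by 0.41 (limma, adjusted p = 7.8e-05 and 0.0063). Macrophage genes also had 1 of 8 called lower, against the same 0.537% of all genes. This was Siglecf, which marks alveolar macrophages and eosinophils and fell by 0.93 ± 0.15 (limma, adjusted p = 0.0041). The list's mean M ran from 1.61 to 2.14 in control and 1.66 to 1.76 in high dams. Lung structural genes had 0 of 10 called (limma; 0 at an unadjusted p under 0.05), with 2.62 to 3.20 in control and 2.60 to 3.00 in high dams.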

How the data were processed

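Lung RNA of 20 dams was hybridised to Agilent 4 x 44 mouse arrays. The authors' deposited value table holds log2 ratios of lung (Cy5) over reference (Cy3), normalised by a method not given in the sources used here. Its columns had medians from -0.050 to -0.032 and correlated with the log2 ratio of the deposited scanner median intensity at r = 0.962 to 0.993, which settles scale and direction. The deposited log10 ratio of the software served as an alternative. Per the file headers, 18 arrays were read with Feature Extraction 9.5.1.1 and 2 with 10.1.1.1.

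Outlier spots were left out and spots of a probe averaged. A probe was kept when Cy5 was well above background on at least 3 of 5 arrays of any group and it had values on at least 16 arrays. The probe of highest mean Cy5 signal stood for its gene. Probe names came from the spot files, updated through RefSeq where an accession, symbol or synonym matched (22940, 6654 and 3109 probes). limma 3.58.1 (R 4.3.3) fitted 4 group means, or a slope over dose steps, and p-values were Benjamini-Hochberg adjusted over 19911 genes; the fit was tested on simulated data. Dams are separate animals, and replicate numbers are animal numbers.

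Members and lists were chosen with earlier results of these data known. All 9 members were named, with the 3 genes of lowest p per T cell list, up to 2 for other lists, called list genes, and the 5 most alike genes of Cd3e, Foxp3 and Il2ra. One list gene and one probe sequence are not reported here. Alternatives were the background correction, normalisation, channel, filter, probe choice, slide, samples fitted and each array left out.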

Additional observations from a re-analysis of the deposited data

Results flagged for a closer look

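In 3 of the 4 groups 1 Cd4 value stood far from the other dams of their group, by the gap to the nearest dam over the whole range of the group. They were the lowest of 5 in each case: control dam 7 at -0.055 (next 0.085), low dam 27 at -0.12 (next 0.091) and medium dam 47 at -0.10 (next 0.15). All 3 were on slide 2. Of the 36 groups examined (9 genes in 4 groups) these 3 stood apart, where chance gives about 1 in 20.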

How the results depend on the processing

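Replicate numbers are animal numbers, none of which occurs in more than 1 group, so they pair no dams. Slide does set control, low and high dams side by side: Tnfrsf4 at the high dose had an adjusted p of 0.0262 with slide as a fixed block and 0.0084 as a random block (limma). With 5 arrays per group, differences of dim members such as Foxp3 and Ctla4 are limited by signal near background. The probes used for Cd4, Il2ra and Cd28 were not far above it, with median Cy5 signals of 109, 112 and 119 against about 82. Over the alternatives their high against control differences ran from 0.045 to 0.42, from -0.32 to 0.51 and from 0.011 to 0.15. That they were not called therefore does not show that they were unchanged. The count of members called at the high against control comparison was 1 and became 0 with normexp background correction and loess, the software log ratio, the Cy5 channel alone and only the 2 groups compared; with 1 array left out it ranged from 0 (without high dam 62) to 1. High against low became 0 with the software log ratio, the Cy5 channel alone, no filter on dim probes, a filter on all arrays, slide as a fixed block, without slide 6 and with only the groups compared, and ranged from 0 to 1 with 1 array left out. The trend count became 0 with normexp and loess, with that background fitted without 1 spot, with the software log ratio and with Cy5 alone, and 2 with slide as a random block. The added gene there was Foxp3, which passed the filter only through the high dams. With 1 array left out the trend count ranged from 0 to 1. Normexp without 1 spot together with slide as a fixed block, chosen after seeing the data, gave 1 for high against control, 0 for high against low and 0 for the trend. The causes were not tested. Tnfrsf4 at the high dose was called in 29 of 34 alternatives, namely 19 of 20 with 1 array left out and 10 of 14 others. The differences ran from 0.36 to 0.60 and the adjusted p from 0.0084 to 0.329 (limma), and no alternative turned the sign. The count over all genes at the high dose was 205 and ranged from 10 (software log ratio, Cy5 alone) to 689 (slide as a random block). Over all genes 22 were called for high against medium (0 to 107), 29 for high against low (2 to 143) and 286 for the trend (0 to 755).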
